A study of Mus musculus with 3 samples.

Results

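The genes described here encode the proteins of the cytosolic ribosome, together with their paralogs. They were taken by symbol: names starting with Rpl or Rps followed by a digit, Rpsa, and Rplp0 to Rplp2, without named pseudogenes and without the Rps6k kinases. This gave 93 of the 50600 genes in the table, of which 77 form the core set (46 of the large subunit and 31 of the small subunit) and 16 are paralogs or other genes with such names. Of these 16, the mouse annotation calls 9 protein-coding and 7 pseudogenes (Rps12l1, Rps3a2, Rps3a3, Rpl6l, Rpl32l, Rpl37rt and Rps4l), although their names do not say so. The rule left out 274 named pseudogenes and 10 kinase rows.

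The libraries were total RNA sequencing of primary T cells from C57BL/6NJ mice, with no transgene, knockout or agent named in the labels and with age unknown and sex not collected. All 3 libraries belong to 1 group and carry the biological replicate numbers 2, 3 and 4. The labels point to a protocol for differentiating CD4+ T cells, and the file headers name the cells Th0 and activated at 0 h, so the state of activation is known only from those names. There is no second condition, so levels, paralog pairs and differences among libraries are described.

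Total counts were 47432940, 59698913 and 28340521 in replicates 2, 3 and 4. All 6 T cell markers were detected, with summed levels between 9807 and 10020 TPM (counts per exon length, scaled to the same sum in each library). The 4 B cell markers summed to between 33.1 and 46.6 TPM, and of the 2 CD8 T cell markers Cd8a averaged 0.534 TPM and Cd8b1 33.6 ± 3.00 TPM. Of the 4 macrophage markers, Cd68 at 13.3 ± 0.314 and Lyz2 at 1.75 ± 0.418 TPM reached 1 TPM in all libraries, and no neutrophil, red cell, or testis and muscle marker did. The labels give all libraries 1 donor identifier, but Xist, the RNA of the inactive X chromosome, had 151, 0.221 and 0.399 TPM in replicates 2, 3 and 4. Ddx3y, on the Y chromosome, had 0.248, 80.0 and 72.3 TPM in the same order of libraries. They thus differ in sex-linked RNA, against the single identifier. Without replicate 2, the ribosomal protein genes held 5.60% of counts, 88 members were detected, and the difference of subunit medians given below was -0.90. Nothing else in the labels says whether each library is 1 animal or a pool, so the spread among libraries may be biological or technical.

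As background, the cytosolic ribosome is built from a large and a small subunit, each made of ribosomal RNA and of proteins that are mostly needed in equal numbers. Their messenger RNAs are among the most abundant in most cells, and many begin with a C followed by a run of pyrimidines, the terminal oligopyrimidine (TOP) tract, through which growth signals acting on mTOR control their translation. T cells raise ribosome production when they leave quiescence, and the paralog pair Rpl22 and Rpl22l1 has separate known roles in mouse T cell development.

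The coding sequences of the pairs whose relation the levels turn on are shown first, because reads can be given to a copy only where its sequence differs. Capitals mark the bases that differ within a pair, in the GENCODE M21 transcripts, from start to last codon without the stop. Rpl39l lies on chromosome 16 and its parent Rpl39 on the X chromosome, and they differ at 23 of 153 coding bases (85.0% identity). Rps27l lies on chromosome 9 and Rps27 on chromosome 3, and they differ at 60 of 252 coding bases (76.2% identity).
Rpl39l: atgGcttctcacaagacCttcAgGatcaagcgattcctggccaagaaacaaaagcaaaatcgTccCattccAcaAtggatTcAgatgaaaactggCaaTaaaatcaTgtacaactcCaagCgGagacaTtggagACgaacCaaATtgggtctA
Rpl39: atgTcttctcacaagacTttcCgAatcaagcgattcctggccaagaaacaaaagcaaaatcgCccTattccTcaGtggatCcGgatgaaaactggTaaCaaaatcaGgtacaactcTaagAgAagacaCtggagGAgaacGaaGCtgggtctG
Rps27l: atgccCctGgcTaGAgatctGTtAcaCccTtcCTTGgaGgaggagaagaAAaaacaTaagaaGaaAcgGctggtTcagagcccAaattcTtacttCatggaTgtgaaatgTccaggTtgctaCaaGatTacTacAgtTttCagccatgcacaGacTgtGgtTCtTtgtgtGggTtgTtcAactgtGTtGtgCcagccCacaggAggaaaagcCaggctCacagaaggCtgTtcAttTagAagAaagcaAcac
Rps27: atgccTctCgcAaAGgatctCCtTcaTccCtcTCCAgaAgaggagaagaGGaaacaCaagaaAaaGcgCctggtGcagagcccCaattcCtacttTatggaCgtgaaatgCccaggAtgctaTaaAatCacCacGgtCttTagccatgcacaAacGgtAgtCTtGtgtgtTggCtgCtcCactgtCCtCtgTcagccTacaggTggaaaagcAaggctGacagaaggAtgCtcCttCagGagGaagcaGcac

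A further copy, Rps27rt, has a coding sequence identical to that of Rps27 over all 252 bases, so coding reads of these genes cannot be told apart and none is printed for it. Coding identity to the parent was 87.7% for Rpl36al, 84.7% for Rpl10l, 73.1% for Rpl3l, 66.9% for Rpl22l1 and 52.7% for Rpl7l1.

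The sequence around the annotated transcription start is shown for some paralog pairs and for Rpl13a, one of the lowest core genes, to set pyrimidine runs beside the levels. Each window has 20 bases on either side of the RefSeq start (GRCm38.p6, the gene's own strand). Capitals mark a run of at least 7 C or T bases with any part within 10 bases of the start.
Rpl22l1 (chr3:28805488-28805527, plus strand): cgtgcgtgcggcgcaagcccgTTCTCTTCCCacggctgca
Rpl22, first start (chr4:152324416-152324455, plus strand): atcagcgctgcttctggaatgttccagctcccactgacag
Rpl22, second start (chr4:152325706-152325745, plus strand): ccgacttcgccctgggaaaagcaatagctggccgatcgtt
Rps27l, first start (chr9:66946066-66946105, plus strand): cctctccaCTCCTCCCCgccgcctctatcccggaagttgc
Rps27 (chr3:90213629-90213668, minus strand): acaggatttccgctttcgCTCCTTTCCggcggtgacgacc
Rpl13a (chr7:45128726-45128765, minus strand): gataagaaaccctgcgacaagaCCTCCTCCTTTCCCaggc

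Such a run was present for Rpl22l1, where it begins with T, and absent from both windows of Rpl22. Rps27l had it at 1 of its 2 starts, wholly upstream of that start. A marked run can thus lie outside the RNA and is not by itself a TOP tract. Of the windows not printed, those of Rpl39 and Rpl39l had a run. It was absent for Rpl24, the lowest core gene, and for Rps15, Rpl36a, Rpl36al, Rps27rt, Rpl7l1, Rpl10l, Rpl3l and Rps19bp1. A promoter was matched for 57 of the 77 core genes, and 31 of them (54.4%) had the run, against 23.1% of all 27025 genes with a promoter and 20.2% of all promoters. Among the members outside the core it was present in 4 of 11 matched genes, and in the list of other TOP genes in 6 of 13. These are counts of letters in a window on the printed strand, and no match says only that the letters are not there.

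Ribosomal protein genes held 5.30, 5.47 and 5.74% of all gene counts in replicates 2, 3 and 4 (5.50 ± 0.218%, SD, n = 3). Counted per exon length, their share of TPM was 12.8, 13.1 and 13.7%. The large subunit core genes held 7.21 ± 0.181% of TPM, the small subunit core genes 5.91 ± 0.296% and the members outside the core 0.0730 ± 0.00275%. The 5 most abundant members carried 28.5 ± 0.449% of the members' own TPM.

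All 77 core genes reached 1 TPM in each library, as did 11 of the 16 others, which makes 88 of 93 members, against 46.1% of 21764 protein-coding genes. The 5 that did not were Rpl3l, Rpl10l, Rpl39l, Rps4l and Rps12l1. Core genes filled 42 of the 100 highest places among protein-coding genes. The core genes had a median of 1129 TPM, against 33.4 TPM for the median detected protein-coding gene. In every library 76 core genes were above 100 TPM, 42 above 1000 TPM (21 of each subunit) and 21 above 2000 TPM.

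**Figure D1:**
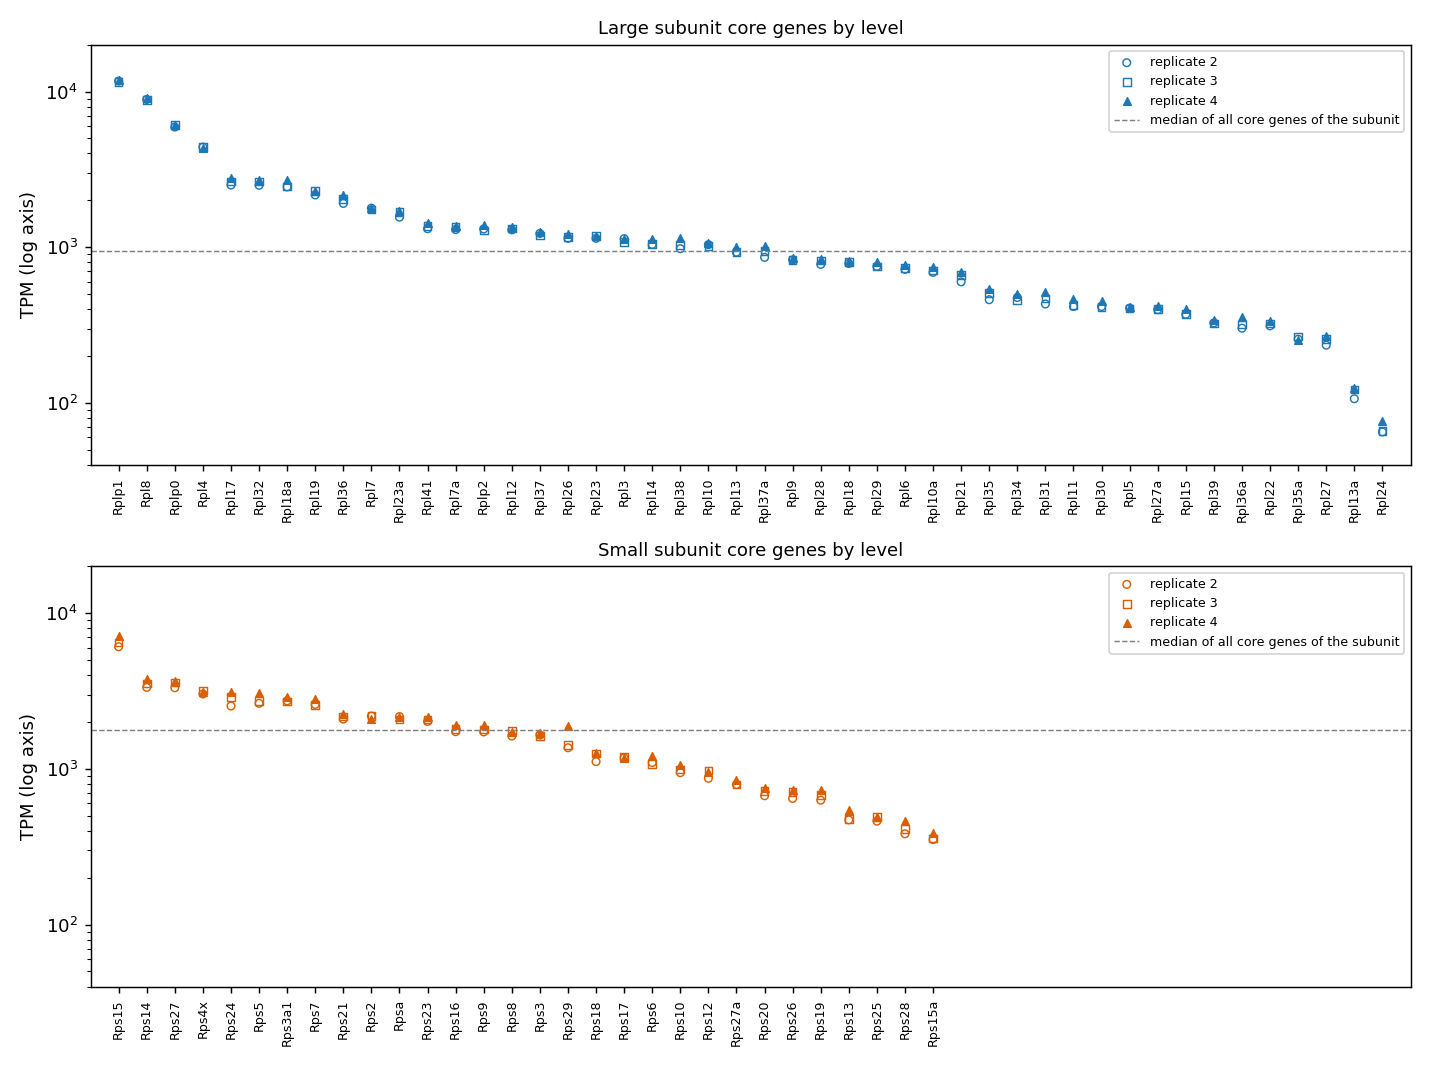
Level of core ribosomal protein genes in TPM on a log axis, with large subunit genes above and small subunit genes below, each ordered by level, for the genes reported here, 1 point per library and a dashed line at the subunit's median. Levels ran from 69.0 TPM for Rpl24 to 11691 TPM for Rplp1, and the points of 1 gene lie close together beside that range.

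The gene for a stalk protein was the most abundant of the set. The stalk of the large subunit, which draws elongation factors to the ribosome, is built from Rplp0 and copies of Rplp1 and Rplp2. Rplp1 (ENSMUSG00000007892.8) stood at 11670, 11560 and 11844 TPM, Rplp0 at 5913, 6081 and 6077 TPM, and Rplp2 at 1310, 1281 and 1382 TPM. Their order was the same in each library, with no overlap.

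Other large subunit genes at the top were Rpl8, whose protein lies near the catalytic centre, and Rpl4, whose protein lines the exit tunnel. Rpl8 was at 8892, 8835 and 9093 TPM. Rpl4 was at 4393, 4399 and 4324 TPM.

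By the deposited exon length, the small subunit was led by Rps15, which is needed to export the small subunit precursor from the nucleus, with 6088, 6495 and 7136 TPM. Rps14 had 3338, 3534 and 3798 TPM, and Rps27 had 3321, 3593 and 3681 TPM. The ranges of Rps14 and Rps27 overlapped, so their order is not fixed by these libraries. The lead of Rps15 turned with the length used: with the principal transcript, Rps27 averaged 7424 TPM and Rps15 5758 TPM, and with the longest coding transcript they averaged 5860 and 5274 TPM.

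By the deposited exon length, 7 of the 8 lowest core genes belong to the large subunit. Rpl24 (ENSMUSG00000098274.7), whose protein forms a bridge between the subunits, was lowest at 65.1, 66.0 and 76.0 TPM. Rpl13a, known in human myeloid cells for a second role as a translational silencer, followed at 106, 122 and 126 TPM. Both lay below every other core gene in each library.

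Next came Rpl27 at 254 ± 17.5 TPM and Rpl35a at 259 ± 7.14 TPM, which overlapped. Rpl22 at 323 ± 10.9, Rpl36a at 326 ± 28.1 and Rpl39 at 331 ± 9.57 TPM differed by less than their spread. The lowest small subunit gene was Rps15a at 365 ± 17.9 TPM. Over the whole core, the highest level exceeded the lowest 169-fold, and the 90th percentile exceeded the 10th by 8.77-fold. With the principal transcript as length these were 111-fold and 7.22-fold. The low end is Rpl24, which has 71.5% of its principal transcript under exons of other genes, as described below.

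Several core genes are known for roles of their own. Rps6, the substrate of the S6 kinases, was at 1099, 1077 and 1212 TPM. Rpl5 and Rpl11, which together bind and inhibit Mdm2 when ribosome assembly fails, were at 407 ± 3.50 and 435 ± 24.0 TPM, and at 542 and 979 TPM with the principal transcript. Rpsa, also described as a laminin receptor precursor, was at 2135 ± 47.8 TPM.

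Rps26, which lies at the messenger RNA exit and is delivered by Tsr2, was at 697 ± 45.4 TPM. Rpl38, needed in mice for translation of a subset of Hox messenger RNAs, was at 1052 ± 84.5 TPM. Rps27a, made as a fusion with ubiquitin, was at 812 ± 31.9 TPM.

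The X-linked core genes were Rps4x at 3030, 3196 and 3117 TPM, Rpl10 at 1039, 1022 and 1067 TPM, Rpl36a at 302, 319 and 357 TPM, and Rpl39 at 326, 324 and 342 TPM. None was highest in replicate 2, the library with Xist. This was not particular to them. On the TMM-scaled log2 CPM scale used below, 0 of 77 core genes were highest in replicate 2, against 4573 of 13498 genes tested.

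Fau and Rack1 are ribosome components with other symbols and were set beside the members. Fau, a fusion of a ubiquitin-like protein with a small subunit protein, was at 2800, 2716 and 3123 TPM, and the scaffold protein gene Rack1 at 1686, 1691 and 1724 TPM.

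Large subunit core genes had lower levels than small subunit core genes. Their medians were 895, 940 and 1014 TPM for the large subunit, against 1650, 1765 and 1886 TPM for the small subunit. The difference of medians, large minus small, was -0.88, -0.91 and -0.90 on the log2(TPM + 0.1) scale, with a mean of -0.90 ± 0.01 (SD, n = 3). No p is given for a score over chosen genes. The sign turned to +0.64 among the 6 core genes (2 large, 4 small) whose principal transcript is at least 90% unique.

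The levels were set beside the way the counts were made. Reads were assigned to genes by exon, and a level was divided by the summed length of all annotated exons. For core genes this was a median of 1.92 times the principal transcript, with extremes of 0.521 and 6.79. Exon lengths came from GENCODE vM13 and principal transcripts from M21, so the ratio can fall below 1. Rps24, at 0.521, had 2840 TPM by exon length and 1028 TPM with the principal transcript. Across the 77 core genes, mean TPM had a Spearman correlation of -0.511 with exon length and -0.451 with that length ratio. It was 0.164 with the share of 50-base stretches of the principal transcript that occur in no other annotated gene. These are descriptions across genes, which share libraries and length terms, and they carry no p. With the principal transcript as length, the rank correlation with the levels above was 0.796, and 7 of the 8 highest and 5 of the 8 lowest core genes were shared. The lowest genes that were not shared were Rpl35a, at 1223 TPM with the principal transcript, Rpl36a at 777 TPM and Rpl39 at 539 TPM.

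Few core genes are unique in sequence. The median share of unique stretches was 48.3%, 18 core genes were below 20% and 6 reached 90%, and 76 of the 77 shared a stretch with an annotated pseudogene. Median levels were 999 TPM for the 18 and 1187 TPM for the 6. The 274 named pseudogenes had 30122 counts over the 3 libraries, 0.407% of the members' 7405020. Of the 274, 74 reached 1 TPM in each library, with Rps16-ps2 highest at 136 ± 14.0 TPM and Rpl14-ps1 next at 133 ± 3.66 TPM.

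The 2 lowest core genes were those most covered by another gene. Rpl24 had 71.5% of its principal transcript under same-strand exons of other genes, mainly Gm28037, which had 0 counts in all libraries. Rpl13a had 59.3%, mainly under Gm45713, also at 0 counts. The next highest core gene was Rpl32 at 15.5%, and Fau and Rack1 had 0%. The headers set no option that lets a read count for 2 genes, and the part of this overlap in the low levels was not tested.

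**Figure D2:**
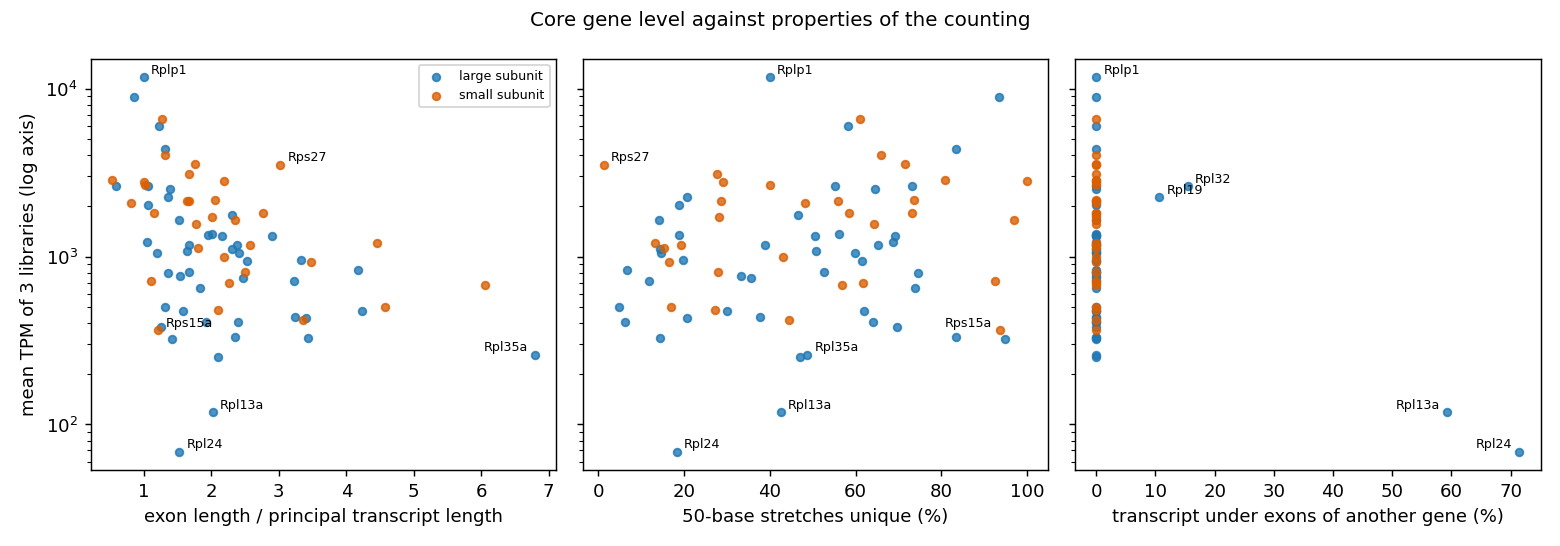
Mean TPM of the 77 core genes on a log axis against exon length over principal transcript length, the percent of 50-base stretches found in no other annotated gene, and the percent of the transcript under exons of another gene. Rpl24 and Rpl13a are the only core genes over 20% in the overlap panel and have the lowest levels.

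Every paralog was below its parent by the deposited exon length, in all 3 libraries. In total 15 pairs were compared, 4 of them (Rpl6l, Rpl32l, Rpl37rt and Rps12l1) added after the values had been seen. For each of the 13 pairs with counts, the exact two-sided sign-flip test over libraries gave p = 0.25, the smallest that 3 libraries allow, and the Benjamini-Hochberg adjusted p over the 13 was also 0.25. Ratios below are of pooled counts per deposited exon length, with exact binomial 95% intervals that cover counting error only and not the choice of length.

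By the deposited exon length, the nearest pairs were those of Rpl36al and Rpl22l1. Rpl36al was at 183, 195 and 175 TPM, against 302, 319 and 357 TPM for Rpl36a, a difference of -0.82 ± 0.18 on the log2 scale. With transcript lengths the difference became -2.51, and with unique stretches as length -4.98. Rpl36a is only 14.5% unique, while Rpl36al is 75.1% unique.

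Rpl22l1 (ENSMUSG00000039221.10) was at 141, 152 and 146 TPM, against 312, 324 and 334 TPM for Rpl22. The parent was 2.19-fold higher (2.15 to 2.24), and the log2 difference was -1.15 ± 0.06. The order turned with the length used: the difference was +0.20 with the longest coding or the principal transcript, and +1.76 with unique stretches. These data therefore give no fixed order for this pair.

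Rpl7l1, whose product acts in assembly of the large subunit, was at 94.7 ± 2.44 TPM, against 1771 ± 24.7 TPM for Rpl7. The parent was 18.6-fold higher (18.2 to 19.0). The log2 difference of -4.22 became -5.43 with transcript lengths and -6.43 with unique stretches. Rps27l, a p53 target, was at 39.6, 48.2 and 37.3 TPM, against 3321, 3593 and 3681 TPM for Rps27, and the parent was 82.0-fold higher (77.6 to 86.6). Its log2 difference of -6.41 became -7.29 with the principal transcript and -13.21 with unique stretches. That last value is not firm, because Rps27 has only 4 unique stretches. Rps27rt was at 100 ± 4.28 TPM, 34.9-fold below Rps27 by these counts, but neither value is firm because only 8.9% of Rps27rt and 1.35% of Rps27 is unique.

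The tissue-restricted paralogs were near or at 0. Rpl3l, known from striated muscle, and Rpl10l, known from mouse spermatogenesis, had 0 counts in all libraries. Set against 3 counts over the group, Rpl3 was at least 23002-fold higher than Rpl3l and Rpl10 at least 13370-fold higher than Rpl10l. Of the 4 testis and muscle markers, Tnp1, Ckm and Myh4 had 0 counts and Prm1 had 2.

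Rpl39l, known from mouse testis, was counted at 0.366, 1.88 and 0.302 TPM, against 326, 324 and 342 TPM for Rpl39. These values rest on 4, 26 and 2 counts, so replicate 3 alone holds most of them. The parent was 322-fold higher (228 to 471), and the log2 difference was -8.85 ± 1.30, or -9.59 without replicate 3 and -9.94 with the principal transcript. The sequences printed above differ enough that 100% of the 50-base stretches of Rpl39l are unique among annotated transcripts.

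Annotated pseudogenes among the members were low apart from Rpl37rt. Rpl37rt was at 88.8 ± 9.12 TPM, with Rpl37 13.6-fold higher. Rps3a2 and Rps3a3 were at 7.81 ± 1.48 and 7.89 ± 0.625 TPM, against 2788 ± 110 TPM for Rps3a1. The value of Rps3a2 is not firm, because only 9.83% of its stretches are unique. Its log2 difference of -8.48 became -6.91 with unique stretches as length. Rpl6l was at 5.72 ± 2.06 TPM with Rpl6 125-fold higher, and Rpl32l at 4.30 ± 0.889 TPM with Rpl32 634-fold higher. With the principal transcript the log2 difference of Rpl6l, -7.06, became -8.35, and with unique stretches -7.75. Of the stretches of Rpl6l, 23.6% are unique. Rps4l was at 1.35 ± 0.674 TPM, 2587-fold below Rps4x, with a log2 difference of -11.16 that became -11.86. Rps12l1 was at 1.28 ± 0.459 TPM, on 18 counts, with 0% of its stretches unique. Its log2 difference from Rps12 was -9.46, or -11.21 with the principal transcript, and neither value is firm. Rps19bp1, which the symbol rule takes but which encodes a protein that binds Rps19, was at 50.2, 40.8 and 44.0 TPM.

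**Figure D3:**
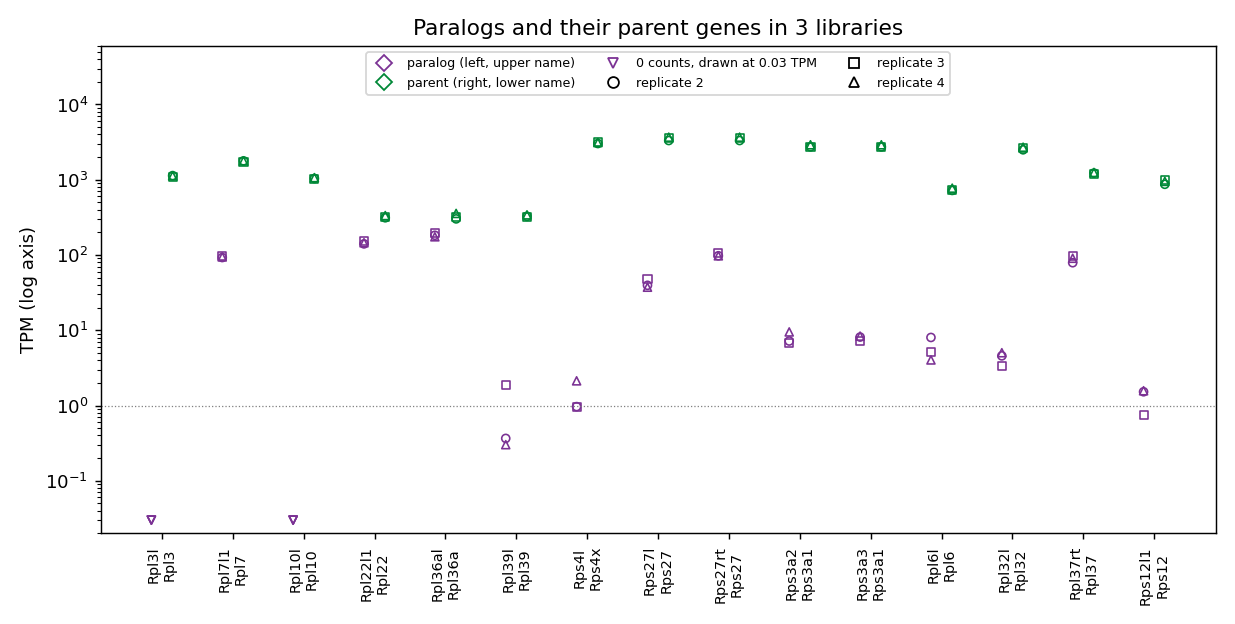
Level in TPM on a log axis of each paralog, at the left of its pair, and of its parent, with 1 symbol per library, inverted triangles for 0 counts and a dotted line at 1 TPM. Each paralog lies below its parent, from a 1.72-fold ratio for Rpl36al to no counts for Rpl3l and Rpl10l.

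Core levels differed little among libraries. Their coefficient of variation had a median of 4.25% (0.860 to 18.1%), against 5.46% over detected protein-coding genes. These sets were not matched for level, with medians of 1129 and 33.4 TPM. The range of log2 CPM over libraries had a median of 0.16 for core genes and 0.19 for all genes tested. Rank correlations of the 77 levels between libraries were 0.997 to 0.998. In edgeR's goodness of fit test of a single mean, 0 of 90 members tested passed an adjusted p of 0.05, where the background was 0.533% of 13498 genes, and 0 passed with DESeq2 size factors in the same test. At an unadjusted p under 0.05 there were 2 members, against 4.1% of all genes, a share near the background.

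The members with the smallest p were Rps29, Rpl39l, Rps24 and Rps28. Rps29 (ENSMUSG00000034892.8), a small zinc-binding protein gene, was at 1368, 1429 and 1886 TPM, highest in replicate 4 (edgeR adjusted p = 0.257). Without replicate 2 it passed, with an edgeR adjusted p of 0.011 where 0.26% of genes were called. Rpl39l had an edgeR adjusted p of 0.570, and with a common dispersion it passed at 0.0157 where 2.31% of genes were called. Rps24 was at 2536, 2886 and 3097 TPM and Rps28 at 383, 413 and 462 TPM, and neither passed.

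The small differences ran the same way across the core. On the TMM-scaled log2 CPM scale, 73 of 77 core genes were highest in replicate 4, against 35.5% of all genes tested. This held for 45 of 46 large subunit genes and 28 of 31 small subunit genes, but for 4 of the 13 tested members outside the core. By CPM of total counts with no TMM factor, 74 of the 90 members tested were highest in replicate 4, against 29.0% of all genes. The median deviation of core genes from their own mean was -0.07, -0.01 and +0.09 in replicates 2, 3 and 4, while the median over all genes was 0.00 in each.

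Pair by pair, 76 of 77 core genes were higher in replicate 4 than in replicate 2 (background 49.5%), by a median of 0.16. In replicate 4 against replicate 3, 73 were higher (background 50.1%), by a median of 0.10. In replicate 3 against replicate 2, 68 were higher (background 50.2%), by a median of 0.07. No p is given for this count, since genes of 1 library are not independent and the libraries have no other labels. Replicate 2 differed from both others in Xist and Ddx3y, so its comparisons cannot be told apart from that difference. Replicates 3 and 4 were alike in these RNAs.

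**Figure D4:**
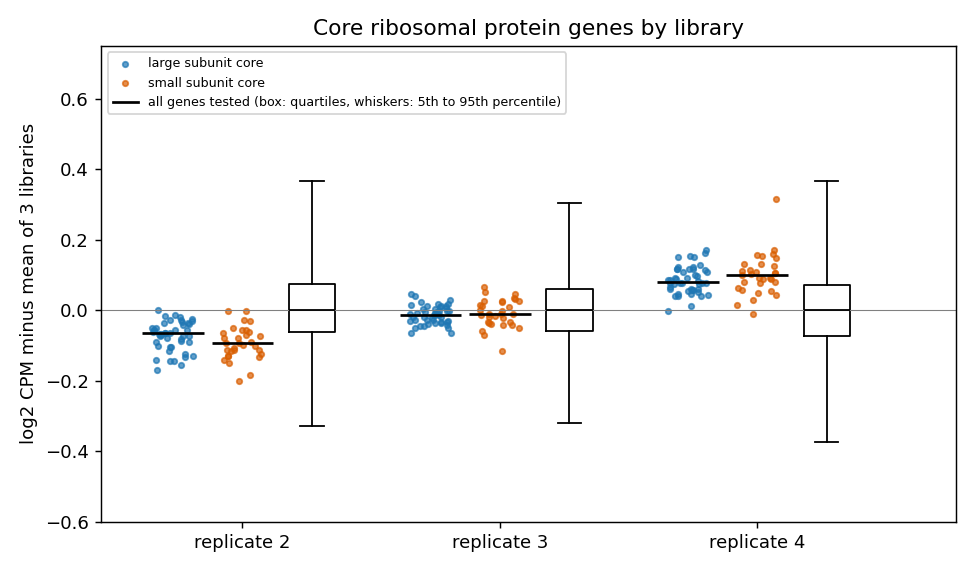
Deviation of each gene's TMM-scaled log2 CPM from its mean over libraries, by replicate, with 1 point per core gene and a line at the median for the large and then the small subunit, and a box (quartiles, whiskers at the 5th and 95th percentiles) for all genes tested. Core genes had medians of -0.07, -0.01 and +0.09 in replicates 2, 3 and 4, while all genes were at 0.00 in each.

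Other values moved with replicate 4. It had the lowest total count, and its B cell marker sum was 33.1 TPM, against 42.0 and 46.6 TPM in replicates 2 and 3. Among other protein-coding genes, 41.9% of 621 with a principal transcript under 1000 bases and 52.5% of 394 at 300 TPM or more were highest in replicate 4, with median deviations of +0.02 and +0.03. Of the 31 that met both conditions the share was 45.2%. Over core genes the deviation in replicate 4 had a Spearman correlation of -0.263 with principal transcript length and -0.239 with level. The part of these in the shift was not tested, and in bulk libraries fewer cells of a type and less RNA per cell cannot be told apart.

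Genes that share the TOP tract or serve ribosomal proteins were measured from lists. All 19 other TOP genes were detected, with a median of 512 TPM. They were led by the elongation factor genes Eef1a1 at 14327 ± 185 and Eef2 at 6182 ± 230 TPM and by Tpt1 at 3310 ± 128 TPM, with Pabpc4, a poly(A)-binding protein gene, lowest at 50.3 ± 1.83 TPM. None of the 19 passed the edgeR goodness of fit test, 14 were highest in replicate 4, against 35.5% of all genes tested, and their median deviation there was +0.04. Fau and Rack1 were both highest in replicate 4.

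The 8 dedicated chaperones of ribosomal proteins were all detected, with a median of 47.2 TPM. Aamp was highest at 201 ± 4.75 TPM, followed by Bccip at 89.4 ± 5.32 and Grwd1, the chaperone of Rpl3, at 71.7 ± 1.58 TPM. Tsr2, which carries Rps26, was lowest at 18.7 ± 1.41 TPM. None of the 8 passed the test, 3 were highest in replicate 4, near the 35.5% of all genes tested, and their median deviation there was 0.00.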

How the data were processed

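Per the file headers, the authors counted read pairs per gene with featureCounts 1.4.6-p4 over exons of GENCODE vM13 on mm10, with both ends aligned and reverse strand counting, and the deposited tables hold these raw counts and each gene's summed exon length. No option for multi-mapping reads, or for reads over several genes, appears in the headers. Aligner settings were not given in the sources used here. Labels name a library protocol that is one for poly(A)+ RNA, while the assay is named total RNA.

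TPM were computed from counts and exon length, with symbols from the given name table (50376 of 50600 genes matched). Biotypes, transcripts and coding sequences came from GENCODE M21 (mm10), and promoters from RefSeq. Log2 values used log2(TPM + 0.1). Differences among libraries were tested in R 4.3.3 with edgeR 4.0.16, as the goodness of fit of 1 mean per gene (negative binomial, trended dispersion, TMM scaling). The 13498 genes averaging at least 10 counts entered, and p-values were adjusted over all of them (Benjamini-Hochberg, threshold 0.05). DESeq2 1.42.0 size factors were an alternative. Data of the same size were simulated at the fitted dispersion trend, with chosen genes changed in 1 library. This test recovered 32.5, 68.5 and 94% of genes changed 1.5-fold, 2-fold and 4-fold. Smaller changes were not simulated, while the range of log2 CPM over libraries had a median of 0.17 for members. P-values measure only the spread among these 3 libraries, and 3 counts set the floor for a gene at 0.

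Genes named are the members outside the core with their parents, the 8 highest and 8 lowest core genes, the 4 members with the smallest goodness of fit p, and genes listed for known roles, apart from some that are not reported here. The members and lists were chosen with earlier results of these data known.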

Additional observations from a re-analysis of the deposited data

How the results depend on the processing

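The difference of subunit medians (-0.90) was -0.68 with the longest coding transcript, -0.73 with the principal transcript and -0.75 over all detected members, and reversed to +0.64 for core genes at least 90% unique. Of 107 alternative values over the paralog pairs, 100 kept their direction and 3 reversed. The other 4 were bounds for paralogs without counts, which moved with the parent still higher. Rpl22l1 minus Rpl22 reversed to +0.20 with the longest coding and with the principal transcript and to +1.76 with unique 50-base stretches. The bounds for Rpl3l and Rpl10l were 44441-fold and 32103-fold with either transcript length. With unique stretches as length, the log2 difference of Rps27rt was -9.48, and with the principal transcript -6.73, against -5.14. The cause was not tested. Members varying among libraries numbered 1 with a common dispersion and 0 to 1 with 1 library left out, and all genes 312 with a common dispersion and 35 to 46 with 1 library left out, against 0 and 72. Members detected were 90 at 0.5 TPM and 86 at 5 TPM, with no share over all genes given at these cuts. Members highest in replicate 4 were 77 of 90 by TMM (background 35.5%) and by DESeq2 size factors. They were 74 by CPM of total counts (background 29.0%) and 70 by TPM. For DESeq2 size factors and TPM no share over all genes is given, so those counts stand without a background. Transcript lengths, the unique-sequence alternatives among annotated transcripts, and the counts of the highest replicate were added after seeing the data, except the longest coding length. The planned use of sequence unique in the whole genome was not run, since no genome was used here. No paired analysis was possible because there is 1 group. Depth limits the paralogs with few counts, such as Rpl39l.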
